A study of Mus musculus with 12 samples.

Results

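Hepatobiliary transporters were represented by 10 genes, chosen by symbol, of the 30743 gene symbols in the deposited table of fetal liver RNA. Of these, 5 are uptake carriers (Slc10a1, Slco1b2, Slco1a1, Slco1a4 and Slco2b1) and 5 are exporters of the bile canaliculus (Abcb11, Abcc2, Abcb4, Abcg5 and Abcg8). The RNA came from whole livers of male C57BL/6J fetuses at 15 ± 0.5 days post coitum. Of the fetuses, 6 were from dams on control chow (13.5 kcal% fat) and 6 from dams on a high-fat diet (HFD, 60 kcal% fat). Each diet was fed for 12 to 14 weeks. The paper presents the HFD livers under maternal obesity, but its methods for this RNA give no dam weights. PolyA-selected RNA was sequenced. The sources used here do not say whether fetuses shared a dam. The study asked whether prenatal HFD or maternal obesity limits expansion of the blood stem and progenitor cells of the fetal liver. It sequenced whole-liver RNA beside cell counts, colony assays and transplantation. The values used here are the authors' average over all 12 livers, 1 per gene. They give a level for each transporter in control and HFD livers together, without a value per liver, an SD or a comparison of the diets.

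Hepatocytes take up bile acids and other organic anions from sinusoidal blood through carriers of the basolateral membrane, and ABC transporters of the canalicular membrane pump bile acids, conjugates, phospholipid and sterols into bile. In rodents much of this system matures around and after birth, when enterohepatic circulation is established. The mid-gestation liver is also the main organ of blood formation, so hepatocytes are only a part of the tissue. In a whole liver, fewer hepatocytes and less RNA per hepatocyte cannot be told apart.

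Levels are given as the authors' average log2 CPM (read counts scaled to the size of the library) and as linear CPM after subtracting the lowest value of the column, -2.71, at which 11091 rows sat. After subtraction all rows summed to 1000487 CPM. Just above the lowest value the rows fell on steps, and 3850 of 3852 rows lay within 0.1 of a whole number of reads up to 8 when a prior count of 2 per library was assumed. A level can therefore also be read as an approximate number of reads over the 12 libraries, whose mean effective size was 13129752 reads after normalization. Of all rows, 31.9% lay above 1 CPM and 36.1% sat at the lowest value.

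The table did not list every gene that fetal liver uses at a high level, and this bears on each transporter below. Among 11 genes that most cells use heavily, chosen after the values were seen, Actb was listed at 2581 CPM and Eef1a1 at 5951 CPM. Of the 11, 7 lay above 1 CPM. Gapdh was listed at 5.05 CPM, Ppia at about 2 reads in all libraries, and Ubb at 0. Hepatocyte markers behaved in the same uneven way. Alb (albumin) was the highest row of the table at 63310 CPM and Afp (alpha-fetoprotein) was listed at 54520 CPM, while Hnf4a, a transcription factor that defines hepatocytes, was listed at 0. For the neutrophil pair S100a8 and S100a9, whose proteins form 1 complex, the listed levels were 477.7 CPM and about 2 reads.

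The listed levels are given beside the number of curated mRNA transcripts (NM accessions) that RefSeq gives for a gene on GRCm38.p6, a split made after the values were seen. Of the liver cell type markers, 36 of 38 with 1 RefSeq transcript lay above 1 CPM, with a median of 148 CPM. Of those with 2 or more, 5 of 15 lay above 1 CPM, 5 were listed at 0, and the median was 0.0316 CPM. Over all rows matched to a RefSeq coding gene the difference was far smaller at the same level, with 47.4% of the 11286 with 1 transcript and 38.7% of the 7077 with 2 or more above 1 CPM. Above a log2 CPM of 6 the shares were 15.6% and 5.62%. Rows listed at 0 went the other way, 24.4% of those with 1 transcript and 18.5% of those with 2 or more. The tool and the feature by which reads were counted are not given in the sources used here, and the part of transcript number in the levels was not tested. Since Hnf4a, Ubb and Ppia were at or near 0, every low level below, whatever the number of transcripts, is given as a listed value and not as low expression.

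**Figure D1:**
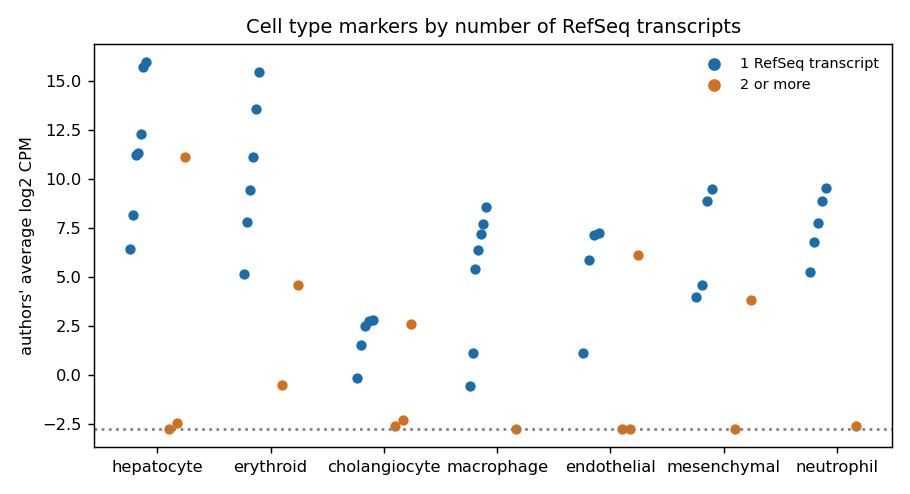
Authors' average log2 CPM over 12 livers (vertical axis) of cell type markers, 1 point per gene, for 7 cell types. Genes with 1 RefSeq transcript are blue and those with 2 or more are orange, and the dotted line is the lowest value of the column. Of the blue genes 36 of 38 lie above 1 CPM (near 0 on the log2 scale), of the orange genes 5 of 15, and the 5 genes on the dotted line are orange.

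Of the 10 transporters, 4 were listed above 1 CPM, Abcc2, Abcb4, Slco1b2 and Abcg5, and each has 1 RefSeq transcript. Slco1a1, the remaining transporter with 1 transcript, was listed at 0. None of the 5 with 2 or 3 transcripts (Slc10a1, Slco1a4, Slco2b1, Abcb11 and Abcg8) was listed above 1 CPM. The highest of these 5 was Abcb11, at 0.215 CPM. Over all matched rows the shares above 1 CPM were the 47.4% and 38.7% given above, and with 5 transporters in each class the split is a description. It held for RefSeq numbers and not for those of GENCODE. There Abcc2 and Abcb4 have 5 transcripts, Slco1b2 and Abcg5 have 4, and Slco1a1 has 3. Slc10a1, Slco1a4 and Abcb11 have 4, Slco2b1 has 9 and Abcg8 has 3.

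**Figure D2:**
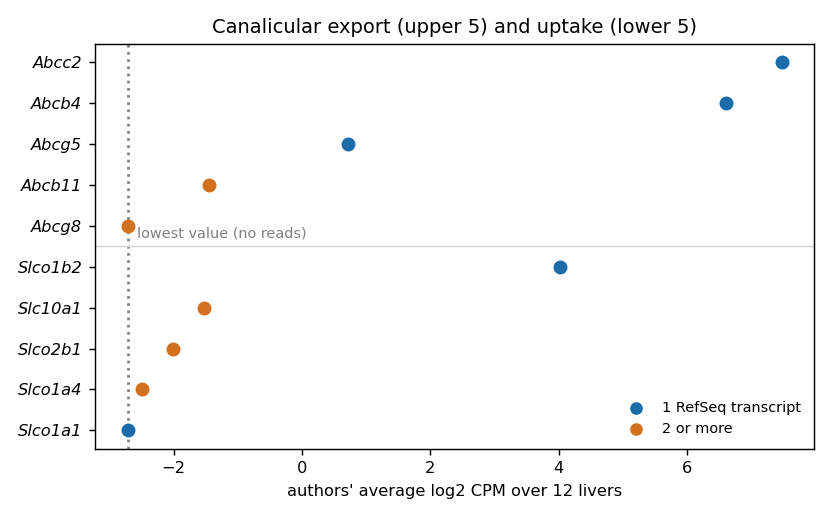
Authors' average log2 CPM over 12 livers (horizontal axis) of the 10 transporters, with the canalicular exporters in the upper 5 rows and the uptake carriers in the lower 5. Blue points are genes with 1 RefSeq transcript and orange points genes with 2 or more, and the dotted line marks the lowest value, -2.71, where Abcg8 and Slco1a1 lie. No orange point exceeds a log2 CPM of -1.44, and no error bar can be drawn from an average.

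Among the exporters, Abcc2 and Abcb4 were listed far above the rest. Abcc2, which exports bilirubin glucuronide and other conjugated organic anions, was listed at a log2 CPM of 7.48, or 178 CPM and about 28030 reads. It ranked 869 of all rows, above 97.2% of them. Its gene lies on the plus strand of chromosome 19 of GRCm38 (the build of mm10), from 43782192 to 43840740. Abcb4, which moves phosphatidylcholine to the outer leaflet of the canalicular membrane, was listed at a log2 CPM of 6.61, or 97.4 CPM and about 15340 reads, above 94.6% of rows. Abcb4 lies on the plus strand of chromosome 5 from 8893717 to 8959231.

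Per length the order of Abcc2 and Abcb4 depended on the length used. Divided by the longest annotated transcript, 8027 bases for Abcc2 and 4079 bases for Abcb4, the levels were 22.2 and 23.9 CPM per kilobase, a ratio of 0.928. By coding length, Abcc2 stood at 38.4 and Abcb4 at 25.4 CPM per kilobase, a ratio of 1.51. By the union of exons, Abcc2 stood at 20.9 and Abcb4 at 10.4 CPM per kilobase, a ratio of 2.01. These values do not show which of the pair was the more abundant. Set against Alb per length of the longest transcript, the listed levels came to 7.12 for Abcc2 and 7.67 for Abcb4 for every 10000 of Alb. These are ratios of listed levels by that length alone and not counts of molecules.

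Abcb4 lies beside Abcb1a and Abcb1b, which encode drug efflux pumps close to it in sequence. Of the windows of 50 bases in the longest Abcb4 transcript, 3.42% occurred unchanged in transcripts of another gene, mostly Abcb1a, so few reads of that length could be shared. Abcb1a was listed at 4.61 CPM and Abcb1b at about 4 reads, both with 1 RefSeq transcript, against 97.4 CPM for Abcb4. For Abcc2 the share of such windows was 0.313%.

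The sterol exporters Abcg5 and Abcg8 work as an obligate heterodimer and are encoded head to head on chromosome 17. Abcg5, on the minus strand from 84658234 to 84683011, was listed at a log2 CPM of 0.72, or 1.501 CPM, about 236 reads and 0.638 CPM per kilobase of its longest transcript. Abcg8, on the plus strand from 84676302 to 84700333, was listed at 0. Abcg5 has 1 RefSeq transcript and Abcg8 has 3. One annotated Abcg8 transcript starts inside Abcg5, and the exons of the genes overlap by 82 bases. In view of Hnf4a and Ubb, the listed 0 of Abcg8 is not a measurement that the partner was absent, and no ratio of the pair is given.

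The starts of the longest annotated transcripts of Abcg5 (84683011) and Abcg8 (84683121) are separated by 109 bases. These bases are shown because both genes of the heterodimer are transcribed outward from them. Another Abcg8 transcript starts at 84683131. The Abcg8 transcript that starts inside Abcg5 (84676302 to 84699333) runs across these bases. The word intergenic below therefore means between the starts of the longest transcripts only. The sequence is from RefSeq, GRCm38.p6, chr17:84683012-84683120, plus strand, read 5′ to 3′ towards Abcg8. Capitals mark TTATC, the reverse complement of the GATA-type motif GATAA.
Abcg5-Abcg8 intergenic region: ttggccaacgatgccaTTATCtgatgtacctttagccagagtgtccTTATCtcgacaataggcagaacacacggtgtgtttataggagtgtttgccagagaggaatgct
Both strands were searched. The motif was found 2 times on the minus strand and 0 times on the plus strand, and the matches did not overlap. Of 32851 RefSeq promoters, 9.36% held at least 1 match and 0.788% held 2 or more in the 109 bases before the start. A match describes letters in this window and is not evidence that a factor binds there.

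Abcb11, the bile salt export pump and the main carrier of bile acids into bile, was listed at a log2 CPM of -1.44, which is 0.215 CPM and about 34 reads over the 12 libraries. The gene lies on the minus strand of chromosome 2 from 69238282 to 69342616. It has 2 RefSeq transcripts. Per kilobase of its longest transcript it stood at 0.0429 CPM.

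Slco1b2 stood apart among the uptake carriers. It encodes a sodium-independent carrier of bile acids, bilirubin and drugs found almost only in hepatocytes. It was listed at a log2 CPM of 4.03, or 16.2 CPM and about 2546 reads, above 84.6% of rows. Per kilobase of the longest transcript it was listed at 4.89 CPM, a listed level of 1.57 for every 10000 of Alb by that length. The Abcb4 level was 4.88 times that of Slco1b2 by the longest transcript, 3.17 times by the union of exons and 3.25 times by coding length. The listed level of Slco1b2 was in turn 7.66 times that of Abcg5 by the longest transcript, 5.93 times by the union of exons and 10.2 times by coding length. As listed, Slco1b2 thus lay below Abcc2 and Abcb4 and above Abcg5 under all 3 lengths. The lengths do not cover the uneven listing described above, and Abcg5 at 1.501 CPM was listed below Gapdh at 5.05 CPM. These ratios are therefore of listed values and not of expression.

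**Figure D3:**
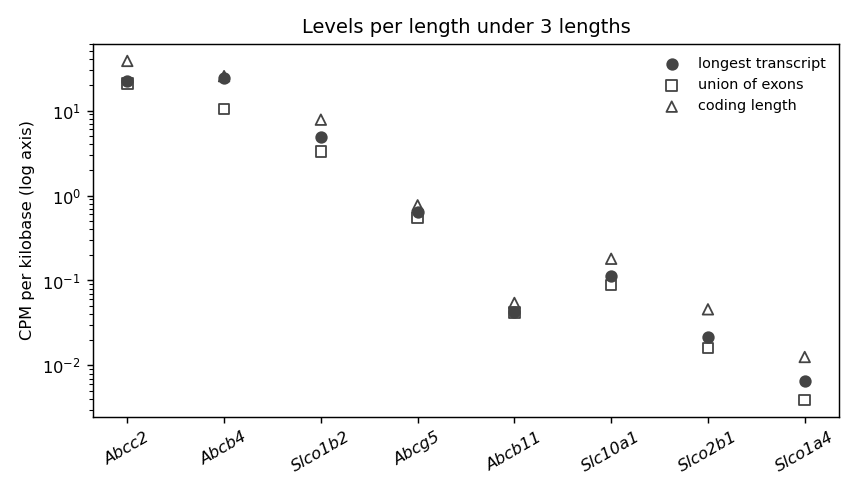
Level per length, in CPM per kilobase on a log axis, of the 8 transporters not listed at 0, ordered from left to right by CPM. Filled circles use the longest transcript, squares the union of exons and triangles the coding length. Abcb4 and Abcc2 change places with the length used (23.9 against 22.2 for circles, 10.4 against 20.9 for squares), and Slco1b2 and Abcg5 follow them in that order under each length.

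The other uptake carriers were listed near or at the lowest value. Slc10a1, the sodium-dependent carrier that brings most conjugated bile acids into adult hepatocytes, was listed at 0.196 CPM, about 31 reads. The gene lies on the minus strand of chromosome 12 from 80953183 to 80968705 and has 3 RefSeq transcripts. Slco2b1, a carrier of steroid sulphates and other organic anions that also acts outside the liver, was listed at 0.0951 CPM, about 15 reads. It lies on the minus strand of chromosome 7 from 99657804 to 99711340 and has 3 RefSeq transcripts. In Slco2b1, 8.31% of the windows of 50 bases were shared, mostly with the overlapping gene Gm15635. The TruSeq v2 kit named in the labels does not mark strand, so reads of such overlapping genes cannot be told apart.

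Slco1b2, Slco1a4 and Slco1a1 belong to a cluster on chromosome 6, with Slco1c1 before them and Slco1a6 and Slco1a5 after them. Slco1b2 runs on the plus strand from 141629518 to 141686646, Slco1a4 on the minus strand from 141805440 to 141856199, and Slco1a1 on the minus strand from 141907282 to 141946962. Slco1a4, a carrier of bile acids and other amphipathic anions of liver and brain endothelium, was listed at 0.0252 CPM, about 4 reads. Slco1a1, which in adults is a carrier of the male liver and kidney, was listed at 0, as were Slco1c1, Slco1a5 and Slco1a6. Slco1b2 was thus the single gene of the 6 listed above 1 CPM.

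Among these neighbours Slco1b2 and Slco1a1 have 1 RefSeq transcript each and the other 4 have 2. The Slco1a genes are close in sequence, but 2.26% of the windows of 50 bases in the longest Slco1a1 transcript and 2.73% of those in Slco1a4 occurred in another gene. No window of Slco1b2 did. Slco1a1 is thus the case among the transporters where a listed 0 was accompanied neither by several RefSeq transcripts nor by much shared sequence. GENCODE gives 3 transcripts for Slco1a1. Ppia, at about 2 reads, also has 1 RefSeq transcript, but shared windows were counted for the transporters only. Ppia therefore cannot show whether the 0 of Slco1a1 comes from the uneven listing. Absence of Slco1a1 mRNA was not tested, and its 0 is given as a listed value.

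**Figure D4:**
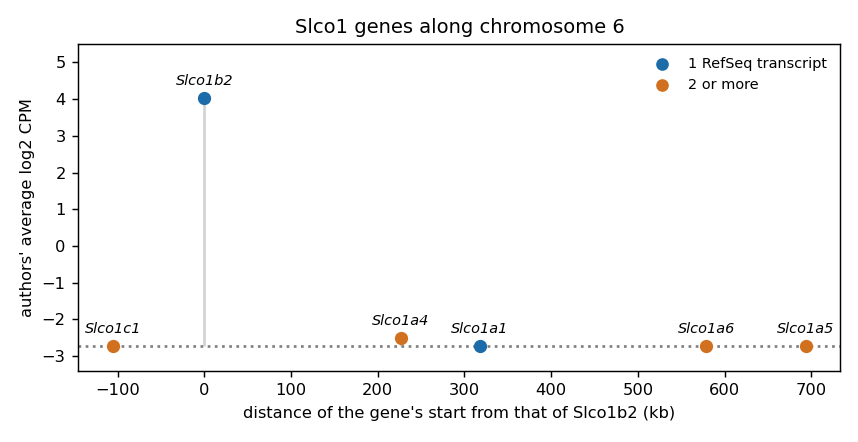
Authors' average log2 CPM (vertical axis) of the 6 Slco1 genes of chromosome 6 against the distance of each gene's start from that of Slco1b2, in kilobases. Blue points have 1 RefSeq transcript and orange points 2, and the dotted line is the lowest value. Slco1b2 at 4.03 is the single gene away from the line by more than about 4 reads.

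Other genes of hepatobiliary transport were listed over a similarly wide range. Of 26 such genes, 13 lay above 1 CPM, 4 were listed at 0, and the median was 1.36 CPM, against 4 of 10, 2 of 10 and a range from 0 to 178 CPM for the transporters above. Of the 17 with 1 RefSeq transcript, 10 lay above 1 CPM, and of the 9 with more, 3 did. Some exporters and flippases with 1 transcript were among the highest, as was Abcg2 with 5. Other exporters with 1 transcript were listed low, such as Abcb1b at about 4 reads and Slc47a1 at 0.702 CPM. Abca1, which loads cholesterol onto apolipoprotein, was listed at 469 CPM, and Atp7b, the copper pump, at 155 CPM. Tmem30a, the shared subunit of phospholipid flippases, was listed at 153 CPM and Atp8b1, a canalicular flippase, at 41.5 CPM.

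Multispecific uptake and basolateral efflux genes ranged from 0 to 90.5 CPM. Abcc6 was listed at 90.5 CPM, Abcc1 at 30.7 CPM, Abcc5 at 16.4 CPM and Slc22a3, an organic cation carrier, at 8.17 CPM. Slc22a7, an organic anion carrier with 1 RefSeq transcript, was listed at about 4 reads. The basolateral bile acid exporter subunits Slc51a and Slc51b, listed under older names, stood at about 101 and about 6 reads. Abcc3 was listed at 0 and Abcc4 at about 1 read, and both have 3 transcripts. Abcg2, with 5 RefSeq transcripts, was listed at 401 CPM, so several transcripts did not always go with a low value. Abcg2 is also an exporter of erythroid cells. Of 10 erythroid markers 8 were listed, without Hba-a1 and Hbb-bt. The listed markers had a median of 457.8 CPM and ranged from 0.552 CPM for Alas2 to 44560 CPM. Which cells the Abcg2 reads came from was not tested.

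Of 12 regulators of transporter transcription, 6 were listed above 1 CPM. These were 1 of the 2 with 1 RefSeq transcript and 5 of the 10 with more, with medians of 14.0 and 0.910 CPM. A class of 2 genes is too small to show whether the split seen in the markers was present here. Rxra, the partner of many nuclear receptors, was listed at 205 CPM with 3 transcripts. Nr1h4, the bile acid receptor that induces Abcb11 in adult liver, was listed at 2.76 CPM with 3 transcripts. Nr0b2, the repressor that Nr1h4 induces, was listed at 0.574 CPM with 1 transcript. Of 8 cholangiocyte markers, 5 lay above 1 CPM and the highest, Krt7, was listed at 6.90 CPM, against a median of 2318 CPM for the 10 hepatocyte markers. Of 5 genes typical of kidney and gut, 4 carriers were listed at 5 reads or fewer. Fabp2, a fatty acid binding protein of intestine, was listed at 15.3 CPM. That is close to the 16.2 CPM of Slco1b2 before division by length, and the 2 were not compared per length.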

How the data were processed

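Whole livers of 6 control and 6 HFD fetuses were sequenced on an Illumina instrument. The submitters' processing notes name cutadapt 1.2.1, Subread 1.3.6-p1, edgeR and mm10. The authors deposited 1 table of 30743 gene symbols. Its 2 columns of average log2 CPM, which were identical, are the authors' mean over all livers, and 1 was used. The other 8 columns hold the authors' own comparison of the diets (log2 fold changes, fold changes, p-values and adjusted p-values) and were not used. Values of single livers were not analysed here, so the test on counts that was planned, its alternatives and any test between diets were not run.

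The lowest value was subtracted on the linear scale. Approximate reads assume a prior count of 2. The simulated data used to check this step were made with the same prior. They therefore checked the arithmetic and could not test the prior. Reads are normalized, so the raw depth of each liver is unknown. Lengths and positions came from GENCODE M21 (GRCm38), transcript numbers and the promoter from RefSeq (GRCm38.p6), and all 10 genes matched in each. Some genes of the lists are counted but not reported here by name. The lists and the transporters were chosen with earlier results of these data known. Markers covered hepatocyte, erythroid, cholangiocyte, macrophage, endothelial, mesenchymal and neutrophil cells, and kidney and gut transporters. Symbols absent from the table were looked up by RefSeq synonyms. The analysis ran in Python 3.11.15 (pandas 2.3.3, numpy 2.4.6), with figures from matplotlib 3.10.9.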

Additional observations from a re-analysis of the deposited data

How the results depend on the processing

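The number of transporters above 1 CPM was 4 with and without subtracting the lowest value, the latter a choice made after seeing the data. The table's other average column gave the same count. In order by level per kilobase of the longest transcript, 2 transporters changed place with the union of exons and 2 with coding length (Abcc2 and Abcb4), and 4 changed place when CPM was not divided by length (also Abcb11 and Slc10a1). By the union of exons the levels became 3.28 for Slco1b2, 20.9 for Abcc2, 10.4 for Abcb4 and 0.553 for Abcg5, in CPM per kilobase. By coding length they became 0.180 for Slc10a1, 7.82 for Slco1b2, 0.0457 for Slco2b1, 38.4 for Abcc2, 25.4 for Abcb4 and 0.767 for Abcg5. Without subtracting the lowest value they became 0.199 for Slc10a1, 0.0464 for Slco1a4, 0.0565 for Slco2b1 and 0.0732 for Abcb11. The remaining levels moved by less than the counting error of their reads, which is wide for Slco1a4 with about 4 reads. Ranks depended on the rows compared. Among rows above 1 CPM, Abcc2 lay above 91.1%, Abcb4 above 83.0%, Slco1b2 above 51.8% and Abcg5 above 8.55% of rows. Among all rows with reads these shares were 95.6%, 91.5%, 76.0% and 54.4%. No paired analysis was possible because the values are averages over all livers. For the same reason other normalizations, filters, pseudocounts and leaving out each liver were not run.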
